A study of Homo sapiens with 24 samples.

Results

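The genes described here are the 3 TGF-β ligands (TGFB1, TGFB2 and TGFB3), the 3 TGF-β receptors (TGFBR1, TGFBR2 and TGFBR3), the latent binding proteins LTBP1 and LTBP2, and SMAD7. They were chosen by name, through the RefSeq transcript that the array files give for each probe. This gave 10 probes for 9 genes, all of which passed the filter on dim probes, among 24647 genes tested. Every one of the 10 probes was well above background on all 24 arrays.

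TGF-β ligands are secreted in a latent form, bound to their own propeptide and, through it, to a latent TGF-β binding protein that anchors the complex in the extracellular matrix. Once released, a ligand binds the type II receptor TGFBR2, which phosphorylates the type I receptor TGFBR1. TGFBR1 then phosphorylates SMAD2 and SMAD3, which enter the nucleus with SMAD4 and regulate target genes. SMAD7 is itself such a target and inhibits the receptors. In the liver, TGF-β is known for growth arrest of hepatocytes and for driving the fibrogenic, matrix-producing state of myofibroblasts.

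Transcripts of HepaRG cells were read on Agilent arrays with 1 dye. HepaRG is an established hepatocellular carcinoma line whose cells can behave as liver progenitors. The question was how Wnt3a, a secreted ligand of Frizzled receptors, changes these cells, and which changes need β-catenin or are sensitive to FZD8_CRD, the soluble Wnt-binding domain of Frizzled 8. There were 8 conditions with 3 replicates each. All cells were kept for 72 h in serum-free medium.

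Cells of the NT group were neither transfected nor treated. The siCTRL and siCTNNB1 groups received 80 pmol of a negative control or a β-catenin siRNA by electroporation. The FZD8_CRD group was not transfected and received mouse FZD8_CRD at 300 ng/ml. Each of these groups had a counterpart with mouse recombinant Wnt3a at 200 ng/ml, written NT+Wnt3a, siCTRL+Wnt3a, siCTNNB1+Wnt3a and FZD8_CRD+Wnt3a. All cells are of 1 line, the transfected groups differ from NT by the electroporation as well as by the siRNA, and the labels do not say whether replicates came from separate cultures. The study describes the replicates of the Wnt3a comparison as independent experiments. The replicate number is also the slide, of which there were 3. Arrays of each condition kept 1 position on every slide, with those of the Wnt3a-treated cells in the second row, so that position on the slide and condition cannot be told apart.

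Between 58.3% and 66.5% of spots per array were well above background. Across all genes, 5 of the 24 arrays lay nearer to another condition than to their own. These were NT replicate 3, nearer NT+Wnt3a; NT+Wnt3a replicate 2, nearer siCTRL+Wnt3a; NT+Wnt3a replicate 3, nearer NT; siCTNNB1+Wnt3a replicate 3, nearer siCTNNB1; and FZD8_CRD replicate 3, nearer FZD8_CRD+Wnt3a. Single arrays were left out only in the comparisons that use their condition. For the 9 genes, calls that change without such an array are given with the value that remains. For the other pathway genes, only counts of targets were recomputed in this way. CTNNB1, the gene of β-catenin, had a log2 signal of 3.41 ± 0.09 in siCTRL and 0.38 ± 0.13 in siCTNNB1, and of 3.56 ± 0.15 and 0.54 ± 0.22 with Wnt3a (SD, n = 3). All 8 hepatocyte markers examined, ALB among them, were well above background on every array. So were 6 of 8 biliary and progenitor markers (KRT19, KRT7, SOX9, CD24, SPP1 and CDH1), while EPCAM and PROM1 were so on 1 and 0 of 24 arrays.

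Signals are given as log2 of the intensity relative to the 75th percentile of the array, so that a gene at 0 is as bright as that percentile. A gene was called when its Benjamini-Hochberg adjusted p, over all 24647 genes in limma, was under 0.05. In bulk RNA, fewer cells of a type and less RNA per cell cannot be told apart. Counts of members are set beside the share of all genes called.

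The promoters of TGFB1, TGFB2 and LTBP1 are shown because these 3 genes had the most similar profiles over the arrays. The windows are the 250 bases before the RefSeq start, in GRCh38.p14, on the strand of the gene and 5′ to 3′: chr19:41353923-41354172 on the minus strand for TGFB1, chr1:218345086-218345335 on the plus strand for TGFB2, and chr2:32946703-32946952 on the plus strand for the first of 3 listed starts of LTBP1. Capitals mark CTTTG, the core of the TCF/LEF motif through which β-catenin acts, and CAGAC, the SMAD box, read on either strand.
TGFB1: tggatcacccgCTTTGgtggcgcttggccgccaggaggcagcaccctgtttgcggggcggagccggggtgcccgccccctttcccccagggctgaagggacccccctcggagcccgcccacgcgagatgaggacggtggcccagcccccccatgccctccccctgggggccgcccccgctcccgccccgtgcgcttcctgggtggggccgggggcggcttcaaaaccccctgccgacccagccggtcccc
TGFB2: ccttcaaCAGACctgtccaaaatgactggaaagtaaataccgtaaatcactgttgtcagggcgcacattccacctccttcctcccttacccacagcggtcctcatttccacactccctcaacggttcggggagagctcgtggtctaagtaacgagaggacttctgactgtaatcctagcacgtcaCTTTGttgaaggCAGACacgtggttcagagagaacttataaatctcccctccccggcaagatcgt
LTBP1: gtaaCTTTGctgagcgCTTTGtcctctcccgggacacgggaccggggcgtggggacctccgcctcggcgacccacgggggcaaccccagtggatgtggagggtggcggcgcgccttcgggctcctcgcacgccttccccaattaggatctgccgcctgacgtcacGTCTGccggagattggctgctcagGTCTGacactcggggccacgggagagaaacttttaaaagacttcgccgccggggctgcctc

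The TGFB1 window held 1 match to CTTTG and 0 to CAGAC. In the TGFB2 window there were 1 and 2 matches, and in that of LTBP1 there were 2 and 2. Such short words are common: CTTTG occurred in 42.1% and CAGAC in 38% of the 35116 promoter windows of the same length. Each of the 9 genes, TGFBR2 among them, had CTTTG in at least 1 of its windows, so that it does not set these 3 genes apart. The full TCF/LEF word CTTTGAT (2.26% of windows), the palindromic SMAD site GTCTAGAC (0.182%) and the AP-1 word TGANTCA (6.57%) were not found in the windows of any of the 9 genes, which says only that these letters are absent there.

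Wnt3a raised 4 of the 9 genes in cells without transfection, TGFB1, TGFB2, TGFB3 and LTBP1, where 5.6% of all genes were called. After control siRNA, it raised 2 of 9, TGFB3 and LTBP2 (2.11% of all genes). After β-catenin siRNA, 0 of 9 genes were called by limma (0.0406% of all genes). An unadjusted p under 0.05 was found for 2 of the 9, beside 2574 of all 24647 genes. In the presence of FZD8_CRD, Wnt3a raised 4 of 9, TGFB1, TGFB3, LTBP1 and SMAD7 (8.29% of all genes). The difference between the Wnt3a responses after the 2 siRNAs was called for 0 of 9 genes (0.0162% of all genes), and so was the difference between the responses with and without FZD8_CRD (0.073%). In each of these tests of a difference, 2 of the 9 genes had an unadjusted p under 0.05, as did 822 and 3129 of all genes. These shares of all genes were themselves unstable: with single arrays or a whole replicate left out, that for Wnt3a in untransfected cells lay between 0.0243% and 25.7%, and that for Wnt3a with FZD8_CRD between 0% and 21.6%. Those for control siRNA against no transfection lay between 0.945% and 27.9% without Wnt3a and between 0.00406% and 16.4% with it. Those for β-catenin siRNA fell as low as 1.92% and 2.39%, and those for FZD8_CRD as low as 25.2% and 16.7%. In a fit of only the conditions compared, 0 members were called for Wnt3a in untransfected cells and 0 with FZD8_CRD. Of all genes, 2 and 0 were called there. A smaller response after β-catenin siRNA or with FZD8_CRD is therefore not shown by the calls alone.

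**Figure D1:**
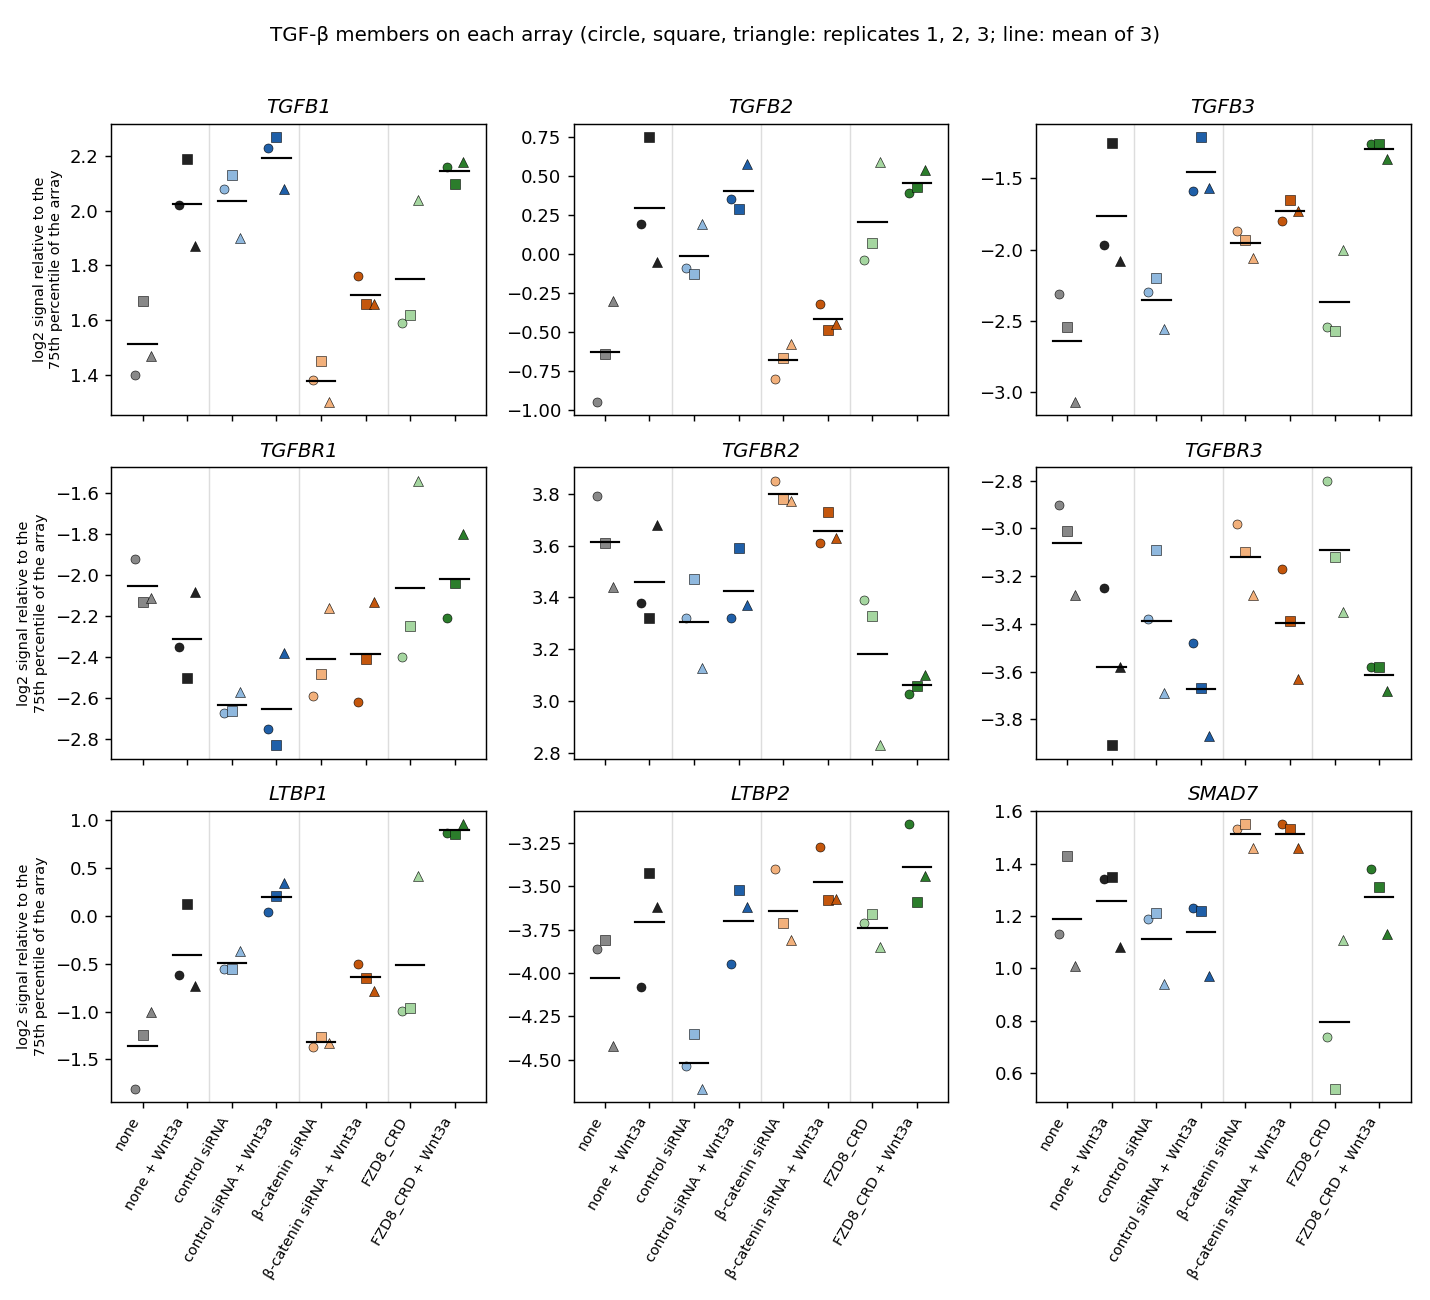
Log2 signal as scaled to the array's 75th percentile (y axis, its own range in each panel) of the 9 genes in the 8 conditions (x axis), with 1 point per array (circle, square and triangle for replicates 1, 2 and 3) and a line at the mean of 3. TGFB1, TGFB2 and LTBP1 are low in untreated and β-catenin siRNA cells, and FZD8_CRD replicate 3 lies apart from the other 2 arrays of its condition for most genes.

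The other comparisons changed more genes overall. Control siRNA against no transfection, which compares electroporated with untouched cells, gave 4 of 9 calls without Wnt3a (22.3% of all genes) and 0 of 9 with it (9.04%). With Wnt3a, LTBP1 alone of the 9 had an unadjusted p under 0.05, beside 5638 of all 24647 genes. β-catenin siRNA against control siRNA gave 4 of 9 without Wnt3a (10.6%) and 2 of 9 with it (10.6%). FZD8_CRD against no addition gave 4 of 9 without Wnt3a (41.9%) and 2 of 9 with it (37.2%). With FZD8_CRD the count of members called was near this background without Wnt3a and below it with Wnt3a, so that it is not a result about the members. The comparisons share NT, siCTRL and other groups and are not independent of each other.

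**Figure D2:**
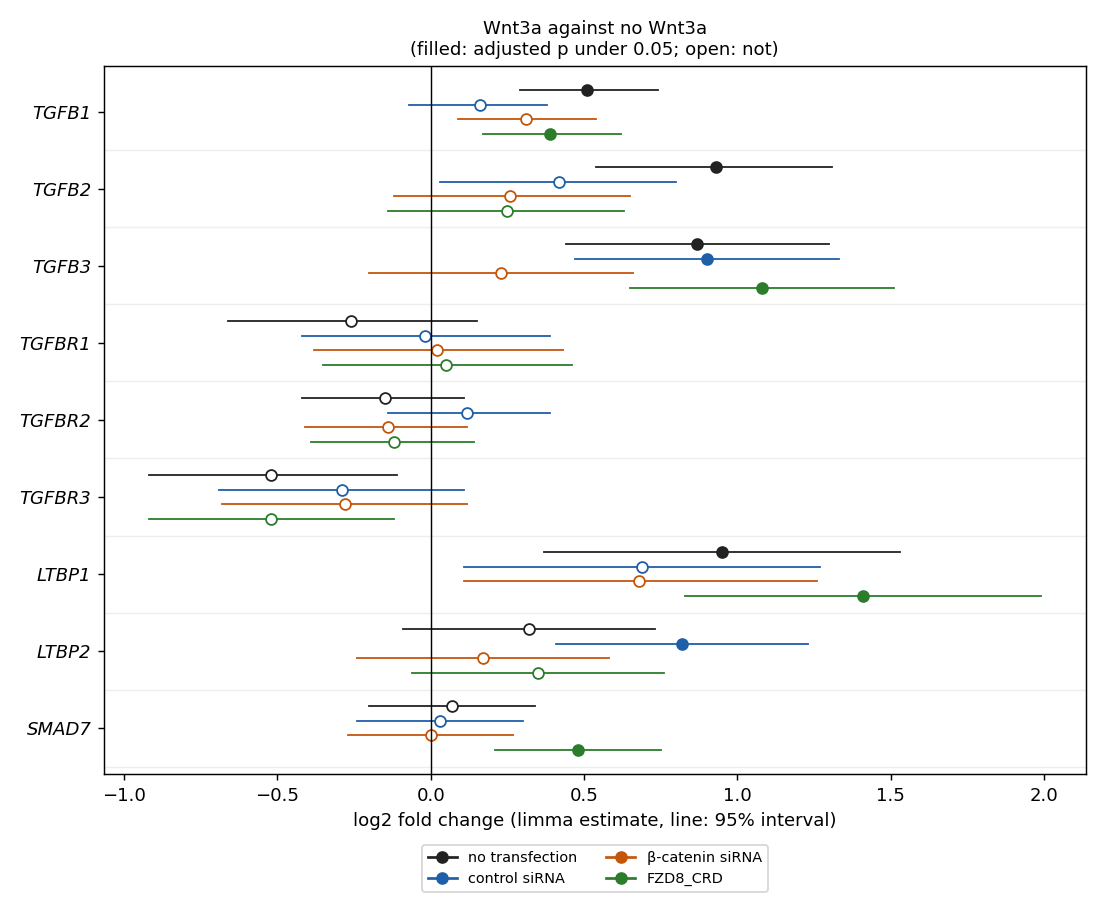
Log2 fold change of each gene with Wnt3a against no Wnt3a (x axis, limma estimate with its 95% interval) in the 4 backgrounds. Filled points, with an adjusted p under 0.05, are all to the right of 0.

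TGFB1 encodes the most widely expressed TGF-β ligand. Its signals were 1.40, 1.67 and 1.47 in NT and 2.02, 2.19 and 1.87 in NT+Wnt3a. They were 2.08, 2.13 and 1.90 in siCTRL and 2.23, 2.27 and 2.08 in siCTRL+Wnt3a. All 3 arrays of NT+Wnt3a were above all 3 of NT, whereas siCTRL and siCTRL+Wnt3a overlapped. In siCTNNB1 the signals were 1.38, 1.45 and 1.30, and in siCTNNB1+Wnt3a they were 1.76, 1.66 and 1.66. In FZD8_CRD they were 1.59, 1.62 and 2.04, and in FZD8_CRD+Wnt3a 2.16, 2.10 and 2.18. Both β-catenin siRNA groups lay wholly below both control siRNA groups. The probe was spotted 10 times per array, with a median SD of 0.031 within an array against 0.11 between replicates.

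Wnt3a raised TGFB1 by 0.51 ± 0.11 on the log2 scale in untransfected cells (SE, adjusted p = 0.00996), a 1.43-fold change, with differences of 0.62, 0.53 and 0.40 on the 3 slides. With arrays scaled to spike-in probes it was 0.12 (adjusted p = 0.714). The call was lost without NT replicate 1 (0.46, adjusted p = 0.0566) or without NT+Wnt3a replicate 2 (0.43, adjusted p = 0.0895). With FZD8_CRD present, the Wnt3a change was 0.39 ± 0.11 (adjusted p = 0.0274). That call ended when any array but FZD8_CRD replicate 3 was left out, with values of 0.31 (adjusted p = 0.207) and 0.33 (adjusted p = 0.186) without FZD8_CRD replicates 1 and 2, and 0.39 (adjusted p = 0.0879), 0.42 (adjusted p = 0.0674) and 0.38 (adjusted p = 0.0863) without FZD8_CRD+Wnt3a replicates 1, 2 and 3. After control siRNA the change was 0.16 (95% interval -0.07 to 0.38, adjusted p = 0.622), and after β-catenin siRNA it was 0.31 (0.09 to 0.54, adjusted p = 0.306). Those 2 changes differed by 0.15 ± 0.15 (unadjusted p = 0.322).

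β-catenin siRNA lowered TGFB1 relative to control siRNA, by -0.66 ± 0.11 without Wnt3a (adjusted p = 0.000473) and -0.50 ± 0.11 with it (adjusted p = 0.00378). Both differences had the same sign on all 3 slides. Control siRNA itself was 0.52 ± 0.11 above NT (adjusted p = 0.00173), and siCTNNB1 was the lowest of the 8 conditions, at 1.38 against 1.51 in NT. These 3 calls held without any single array of the conditions compared. FZD8_CRD gave a difference of 0.24 ± 0.11 without Wnt3a (adjusted p = 0.0826), which reached 0.32 without NT replicate 2 (adjusted p = 0.0395) or without FZD8_CRD replicate 1 (adjusted p = 0.0362). In the order of the 8 condition means, from siCTRL+Wnt3a (2.19) to siCTNNB1, 0 of 7 neighbouring pairs were free of overlap.

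TGFB2 encodes a second ligand, whose binding to TGFBR2 is aided by the coreceptor TGFBR3. Its signals were -0.95, -0.64 and -0.30 in NT and 0.19, 0.75 and -0.05 in NT+Wnt3a, with all 3 treated arrays above the untreated ones. They were -0.09, -0.13 and 0.19 in siCTRL and 0.35, 0.29 and 0.58 in siCTRL+Wnt3a. In siCTNNB1 the signals were -0.80, -0.67 and -0.58, and in siCTNNB1+Wnt3a they were -0.32, -0.49 and -0.45. The β-catenin siRNA groups lay wholly below the control siRNA groups, with or without Wnt3a. FZD8_CRD arrays gave -0.04, 0.07 and 0.59, and FZD8_CRD+Wnt3a arrays 0.39, 0.43 and 0.54. FZD8_CRD was wholly above NT, and its replicate 3 was above all 3 arrays with Wnt3a.

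Wnt3a raised TGFB2 by 0.93 ± 0.19 in untransfected cells (adjusted p = 0.00879), a 1.90-fold change and 1.14, 1.39 and 0.25 by slide. It fell to 0.77 (adjusted p = 0.0536) without NT replicate 1 and to 0.70 (adjusted p = 0.0793) without NT+Wnt3a replicate 2. The changes after control siRNA (0.42 ± 0.19, adjusted p = 0.303), after β-catenin siRNA (0.26 ± 0.19, adjusted p = 0.706) and with FZD8_CRD (0.25 ± 0.19, adjusted p = 0.545) were not called. The response with FZD8_CRD minus that without it was -0.68 ± 0.26 (unadjusted p = 0.0178, adjusted p = 0.267). It was called under 1 of 27 alternatives, without replicate 3 of every condition (-0.87, adjusted p = 0.0246).

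β-catenin siRNA lowered TGFB2 by -0.67 ± 0.19 without Wnt3a (adjusted p = 0.0236) and by -0.83 ± 0.19 with it (adjusted p = 0.0055). The second call held without any single array of the conditions compared. The first was lost without siCTRL replicate 1 (-0.71, adjusted p = 0.0549) or 3 (-0.57, adjusted p = 0.106), or without siCTNNB1 replicate 1 (-0.61, adjusted p = 0.0917), 2 (-0.68, adjusted p = 0.061) or 3 (-0.73, adjusted p = 0.0504). FZD8_CRD alone raised TGFB2 by 0.84 ± 0.19 over NT (adjusted p = 0.00115, 0.91, 0.71 and 0.90 by slide), a call that held without any single array of these conditions. With Wnt3a in both groups the FZD8_CRD difference was 0.16 (95% interval -0.23 to 0.55). Control siRNA was 0.62 ± 0.19 above NT (adjusted p = 0.0203), which was lost without NT replicate 1 (0.46, adjusted p = 0.136) or 2 (0.62, adjusted p = 0.051) or siCTRL replicate 3 (0.52, adjusted p = 0.0945).

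TGFB3, the remaining ligand, gave signals of -2.31, -2.54 and -3.07 in NT and -1.97, -1.25 and -2.08 in NT+Wnt3a. After control siRNA they were -2.30, -2.20 and -2.56 without Wnt3a and -1.59, -1.21 and -1.57 with it. Both treated groups lay wholly above their controls. In siCTNNB1 they were -1.87, -1.93 and -2.06, and in siCTNNB1+Wnt3a -1.80, -1.65 and -1.73. In FZD8_CRD they were -2.54, -2.57 and -2.00, and in FZD8_CRD+Wnt3a -1.26, -1.26 and -1.36. The 4 groups with Wnt3a were each above their counterpart without it on every array, by the narrowest margin after β-catenin siRNA.

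Wnt3a raised TGFB3 by 0.87 ± 0.21 in untransfected cells (adjusted p = 0.0186), by 0.90 ± 0.21 in control siRNA cells (adjusted p = 0.0277) and by 1.08 ± 0.21 with FZD8_CRD (adjusted p = 0.0037), a 2.11-fold change. The last of these held without any single array of the conditions compared. In untransfected cells the call was lost without NT replicate 2 (0.92, adjusted p = 0.0517) or NT+Wnt3a replicate 2 (0.61, adjusted p = 0.167). After control siRNA it was lost without siCTRL replicate 1 (0.93, adjusted p = 0.0942), 2 (0.97, adjusted p = 0.05) or 3 (0.79, adjusted p = 0.13), or siCTRL+Wnt3a replicate 2 (0.77, adjusted p = 0.156) or 3 (0.95, adjusted p = 0.071). After β-catenin siRNA the change was 0.23 (95% interval -0.20 to 0.66). It was smaller than after control siRNA by -0.67 ± 0.29 on the log2 scale, with an unadjusted p of 0.0328 that did not survive adjustment (adjusted p = 1).

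In direct comparisons, neither β-catenin siRNA (0.40 without and -0.27 with Wnt3a) nor FZD8_CRD (0.27 and 0.47) moved TGFB3 past the threshold. The FZD8_CRD difference with Wnt3a had an adjusted p of 0.0806, and of 0.00581 with a value of 0.73 when NT+Wnt3a replicate 2 was left out. It also passed under quantile normalization (0.58, adjusted p = 0.031) and with the log2 values deposited by the authors (0.58, adjusted p = 0.027).

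TGFBR2 encodes the type II receptor, which binds the ligand and starts signalling. Its signals were 3.79, 3.61 and 3.44 in NT and 3.38, 3.32 and 3.68 in NT+Wnt3a. After control siRNA they were 3.32, 3.47 and 3.13, and 3.32, 3.59 and 3.37 with Wnt3a. The groups with and without Wnt3a overlapped in both backgrounds. After β-catenin siRNA the signals were 3.85, 3.78 and 3.77, and 3.61, 3.73 and 3.63 with Wnt3a. In FZD8_CRD they were 3.39, 3.33 and 2.83, and in FZD8_CRD+Wnt3a 3.03, 3.06 and 3.1. The highest 2 condition means were those with β-catenin siRNA and the lowest 2 those with FZD8_CRD.

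TGFBR2 was 0.49 ± 0.13 higher with β-catenin siRNA than with control siRNA (adjusted p = 0.0162, 1.41-fold), and 0.23 ± 0.13 with Wnt3a in both (adjusted p = 0.335). The first value was no longer called without siCTRL replicate 1 (0.50, adjusted p = 0.0504) or 3 (0.40, adjusted p = 0.0888) or siCTNNB1 replicate 1 (0.47, adjusted p = 0.0606). FZD8_CRD lowered TGFBR2 by -0.43 ± 0.13 (adjusted p = 0.0103) and, with Wnt3a, by -0.40 ± 0.13 (adjusted p = 0.0183). The first was lost without NT replicate 1 (-0.34, adjusted p = 0.0656) or FZD8_CRD replicate 3 (-0.25, adjusted p = 0.0832), and the second without NT+Wnt3a replicate 3 (-0.29, adjusted p = 0.103) or FZD8_CRD+Wnt3a replicate 1 (-0.38, adjusted p = 0.056). None of the 4 Wnt3a changes of this gene, between -0.15 and 0.12, was called. Without replicate 3 of every condition, those in untransfected cells (-0.35, adjusted p = 0.0168) and with FZD8_CRD (-0.31, adjusted p = 0.0285) passed. There, 25.7% and 21.6% of all genes were called. The control siRNA difference from NT was -0.31 (adjusted p = 0.0935), and -0.39 (adjusted p = 0.045) without NT replicate 3.

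TGFBR1 encodes the type I receptor kinase. Its signals ranged from -2.13 to -1.92 in NT, from -2.50 to -2.08 in NT+Wnt3a, from -2.67 to -2.57 in siCTRL and from -2.83 to -2.38 in siCTRL+Wnt3a. Those of siCTRL were wholly below those of NT. With β-catenin siRNA the range was -2.59 to -2.16, and -2.62 to -2.13 with Wnt3a. With FZD8_CRD the signals were -2.40, -2.25 and -1.54, and -2.21, -2.04 and -1.80 with Wnt3a, so that replicate 3 was the highest in both.

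Control siRNA lowered TGFBR1 by -0.59 ± 0.19 (adjusted p = 0.0352), the only 1 of 12 comparisons in which it was called. The call was lost without NT replicate 1 (-0.52, adjusted p = 0.135), 2 (-0.63, adjusted p = 0.0575) or 3 (-0.61, adjusted p = 0.0524), or without siCTRL replicate 1 (-0.57, adjusted p = 0.0916), 2 (-0.57, adjusted p = 0.0877) or 3 (-0.62, adjusted p = 0.0653). The 4 Wnt3a changes lay between -0.26 and 0.05. Without replicate 3 of every condition, that in untransfected cells was -0.40 and passed (adjusted p = 0.0407).

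TGFBR3, or betaglycan, is the coreceptor that presents ligands to TGFBR2. Its signals ranged from -3.28 to -2.90 in NT and from -3.91 to -3.25 in NT+Wnt3a. In FZD8_CRD they ranged from -3.35 to -2.80, and in FZD8_CRD+Wnt3a from -3.68 to -3.58. The latter pair of groups did not overlap. After control siRNA the ranges were -3.69 to -3.09 and, with Wnt3a, -3.87 to -3.48, and after β-catenin siRNA -3.28 to -2.98 and -3.63 to -3.17.

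The 4 Wnt3a changes of TGFBR3 were all below 0, and none was called: -0.52 ± 0.19 without transfection (adjusted p = 0.117), -0.29 after control siRNA, -0.28 after β-catenin siRNA and -0.52 ± 0.19 with FZD8_CRD (adjusted p = 0.104). With the slide as a block the first and the last passed (adjusted p = 0.0238 and 0.018). The last also passed without FZD8_CRD replicate 3 (-0.66, adjusted p = 0.0305). Without replicate 3 of every condition, the first passed (-0.62, adjusted p = 0.0495). Of the 9 genes, TGFBR3 was called in none of the 12 comparisons of the model without the block.

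LTBP1 encodes the binding protein that carries the latent ligand to the matrix, and it had the widest range of condition means among the 9 genes, 2.26 on the log2 scale. Its signals were -1.81, -1.25 and -1.01 in NT and -0.62, 0.12 and -0.73 in NT+Wnt3a. After control siRNA they were -0.55, -0.55 and -0.37, and 0.04, 0.21 and 0.34 with Wnt3a. In both backgrounds the Wnt3a-treated arrays were above all untreated ones. After β-catenin siRNA they were -1.37, -1.27 and -1.33, and -0.50, -0.65 and -0.78 with Wnt3a. In FZD8_CRD they were -0.99, -0.96 and 0.42, and in FZD8_CRD+Wnt3a 0.87, 0.86 and 0.96. The last group lay above the arrays of every other condition. Of those arrays, FZD8_CRD replicate 3 lay closest to FZD8_CRD+Wnt3a, above the other 2 arrays of its own group.

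FZD8_CRD with Wnt3a gave 1.31 ± 0.28 more LTBP1 signal than Wnt3a alone (adjusted p = 0.000956), a 2.48-fold difference, with 1.5, 0.73 and 1.69 by slide. This call held without any single array of the conditions compared. Wnt3a raised LTBP1 by 1.41 ± 0.28 in the presence of FZD8_CRD (adjusted p = 0.00457), with 1.86, 1.82 and 0.55 by slide, and the value was 1.17 (adjusted p = 0.0532) without FZD8_CRD replicate 1 and 1.18 (adjusted p = 0.0515) without replicate 2. FZD8_CRD alone was 0.85 ± 0.28 above NT (adjusted p = 0.0184), but 0.38 (adjusted p = 0.152) without FZD8_CRD replicate 3 and 0.62 (adjusted p = 0.115) without NT replicate 1.

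In untransfected cells Wnt3a raised LTBP1 by 0.95 ± 0.28, just inside the threshold (adjusted p = 0.0496). It was no longer called without NT replicate 1 (0.72, adjusted p = 0.235) or 2 (1.00, adjusted p = 0.114), or without NT+Wnt3a replicate 1 (1.05, adjusted p = 0.0575) or 2 (0.68, adjusted p = 0.351). In all, this call was lost under 13 of 21 alternatives. Among them were normexp background correction (0.77, adjusted p = 0.0794) and a fit of only the conditions compared (0.95, adjusted p = 0.453). The Wnt3a changes after control siRNA (0.69 ± 0.28, adjusted p = 0.237) and after β-catenin siRNA (0.68 ± 0.28, adjusted p = 0.382) differed by -0.01 (95% interval -0.82 to 0.81). The response with FZD8_CRD minus that without it was 0.46 ± 0.39 (adjusted p = 0.732), and 0.92 (adjusted p = 0.0479) without FZD8_CRD replicate 3.

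β-catenin siRNA against control siRNA gave -0.83 ± 0.28 without Wnt3a (adjusted p = 0.0604) and -0.84 ± 0.28 with it (adjusted p = 0.0589) for LTBP1. The groups did not overlap. Each difference was called under 5 of 21 alternatives and not under the other 16. Both passed with the slide as a block (adjusted p = 0.0368 and 0.0367) and with the mean of the LTBP1 probes (adjusted p = 0.045 and 0.0496). They also passed in a fit of only the conditions compared (adjusted p = 0.00247 and 0.00808). Control siRNA was 0.87 ± 0.28 above NT (adjusted p = 0.0292). That call was lost without NT replicate 1 (0.64, adjusted p = 0.173) or without siCTRL replicate 1 (0.90, adjusted p = 0.0621), 2 (0.90, adjusted p = 0.0594) or 3 (0.81, adjusted p = 0.0905). With Wnt3a in both groups the difference was 0.61 (adjusted p = 0.192), and 0.87 (adjusted p = 0.0426) without NT+Wnt3a replicate 2. The other LTBP1 probe, tested among 31065 probes, had the same sign in every direct comparison, for example 1.47 ± 0.28 for FZD8_CRD with Wnt3a against Wnt3a alone (adjusted p = 0.000369) and 0.86 ± 0.28 for Wnt3a in untransfected cells (adjusted p = 0.0766). For β-catenin siRNA that probe gave -0.89 ± 0.28 without Wnt3a (adjusted p = 0.0474) and -0.84 ± 0.28 with it (adjusted p = 0.0622).

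**Figure D3:**
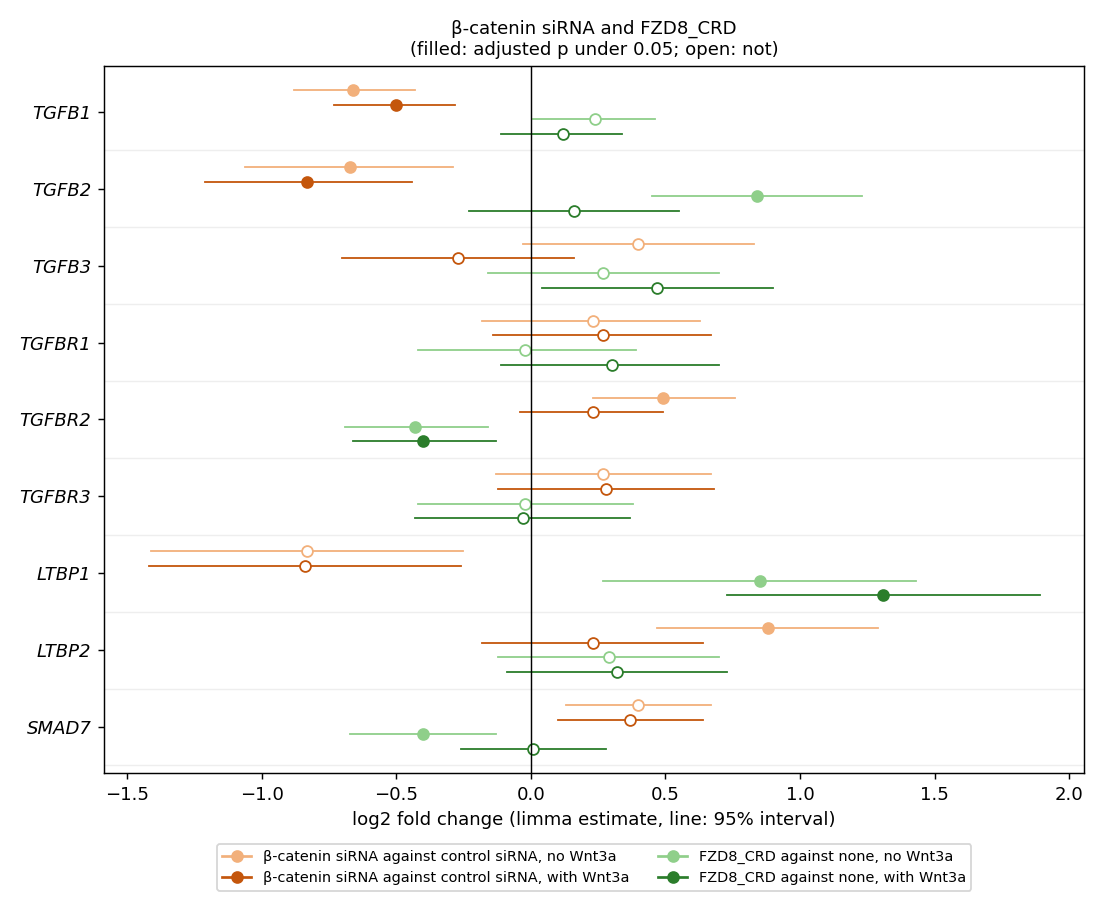
Log2 fold change of each gene (x axis, limma estimate with its 95% interval) with β-catenin siRNA against control siRNA and with FZD8_CRD against no addition, each without and with Wnt3a. Filled points have an adjusted p under 0.05; TGFB1 and TGFB2 are filled on the left with β-catenin siRNA, and LTBP1 on the right with FZD8_CRD.

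LTBP2, a matrix protein of the same family that does not bind latent TGF-β itself, gave signals of -4.54, -4.35 and -4.67 in siCTRL and -3.95, -3.52 and -3.62 in siCTRL+Wnt3a. In siCTNNB1 they were -3.40, -3.71 and -3.81, and in siCTNNB1+Wnt3a -3.27, -3.58 and -3.57. The siCTRL arrays were lower than those of all other conditions but for 1 array of NT. Signals ranged from -4.42 to -3.81 in NT, from -4.08 to -3.42 in NT+Wnt3a, from -3.85 to -3.66 in FZD8_CRD and from -3.59 to -3.14 in FZD8_CRD+Wnt3a.

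After control siRNA, LTBP2 was 0.82 ± 0.20 higher in Wnt3a-treated cells (adjusted p = 0.0342), and it was 0.88 ± 0.20 higher with β-catenin siRNA than with control siRNA (adjusted p = 0.00623). Both comparisons share siCTRL, the lowest of the 8 condition means (-4.52, beside -4.03 in NT). The first was lost without siCTRL replicate 1 (0.81, adjusted p = 0.129), 2 (0.90, adjusted p = 0.0564) or 3 (0.75, adjusted p = 0.145), or siCTRL+Wnt3a replicate 2 (0.73, adjusted p = 0.169) or 3 (0.78, adjusted p = 0.123). The second held without any single array of the conditions compared. With normexp background correction, which compresses dim probes, the values were 0.28 (adjusted p = 0.208) and 0.27 (adjusted p = 0.101). The control siRNA difference from NT, -0.49 (adjusted p = 0.0811), was called without NT replicate 3 (-0.69, adjusted p = 0.0175).

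SMAD7, the inhibitory SMAD induced by TGF-β, gave signals of 1.13, 1.43 and 1.01 in NT and 1.34, 1.35 and 1.08 in NT+Wnt3a. After control siRNA they were 1.19, 1.21 and 0.94, and 1.23, 1.22 and 0.97 with Wnt3a. After β-catenin siRNA they were 1.53, 1.55 and 1.46, and 1.55, 1.53 and 1.46 with Wnt3a. Every array with β-catenin siRNA was above every other array. In FZD8_CRD they were 0.74, 0.54 and 1.11, and in FZD8_CRD+Wnt3a 1.38, 1.31 and 1.13. Replicates 1 and 2 of FZD8_CRD were the 2 lowest arrays, and replicate 3 was among those of the other conditions.

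Wnt3a left SMAD7 within 0.07 of its control in the other 3 backgrounds and raised it by 0.48 ± 0.13 with FZD8_CRD (adjusted p = 0.0274), with 0.64, 0.77 and 0.02 by slide. The call was lost without FZD8_CRD replicate 1 (0.45, adjusted p = 0.151) or 2 (0.35, adjusted p = 0.22) or without FZD8_CRD+Wnt3a replicate 1 (0.42, adjusted p = 0.121) or 2 (0.46, adjusted p = 0.0944). FZD8_CRD alone gave -0.40 ± 0.13 against NT (adjusted p = 0.0186), although the groups overlapped and the sign was not the same on the 3 slides (-0.39, -0.90 and 0.10). This was lost without NT replicate 2 (-0.27, adjusted p = 0.118) and without FZD8_CRD replicate 1 (-0.37, adjusted p = 0.0565) or 2 (-0.27, adjusted p = 0.131). The 2 Wnt3a responses differed by 0.41 ± 0.18 (adjusted p = 0.359), and by 0.56 without FZD8_CRD replicate 3 (adjusted p = 0.042). β-catenin siRNA gave 0.40 ± 0.13 (adjusted p = 0.0528) and, with Wnt3a, 0.37 ± 0.13 (adjusted p = 0.0758), with no overlap between groups, and both passed with the slide as a block (adjusted p = 0.0312 and 0.0469).

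In all, 26 of 108 tests of the 9 genes over 12 comparisons were called. Of these, 8 held whichever single array of the conditions compared was left out: TGFB1 for control siRNA against no transfection and for β-catenin siRNA without and with Wnt3a, TGFB2 for β-catenin siRNA with Wnt3a and for FZD8_CRD alone, TGFB3 for Wnt3a with FZD8_CRD, LTBP1 for FZD8_CRD with Wnt3a, and LTBP2 for β-catenin siRNA. Leaving out replicate 1 of every condition kept 2 of 26 calls, leaving out replicate 2 kept 5, and leaving out replicate 3 kept 25. Arrays were also scaled to 7 spike-in probes in place of the 75th percentile. Between conditions, the median of all genes then moved by up to -0.386 (Wnt3a in untransfected cells) and 0.266 (control siRNA against no transfection, with Wnt3a). With this scaling, 6 of 26 calls were kept. The 6 were TGFB2 for β-catenin siRNA with Wnt3a (-1.03), TGFBR1 for control siRNA (-0.87), TGFBR2 (-0.82) and SMAD7 (-0.79) for FZD8_CRD alone, where the median of all genes was -0.463, and LTBP1 for Wnt3a with FZD8_CRD (1.32) and for FZD8_CRD with Wnt3a (1.22). All statements above are relative to the 75th percentile.

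The spike-in scaling left the sign of the other 20 values as it was. For Wnt3a in untransfected cells it gave 0.12 for TGFB1, 0.53 for TGFB2, 0.48 for TGFB3 and 0.56 for LTBP1 (adjusted p from 0.226 to 0.714), while the median of all genes was -0.372. For Wnt3a with FZD8_CRD, TGFB3 was at 0.99 (adjusted p = 0.153). For control siRNA without Wnt3a it gave 0.24 for TGFB1, 0.34 for TGFB2 and 0.58 for LTBP1. For FZD8_CRD without Wnt3a it gave 0.45 for TGFB2 and 0.46 for LTBP1 (adjusted p = 0.158 and 0.22). With β-catenin siRNA, TGFB1 was at -0.57 without Wnt3a (adjusted p = 0.567) and at -0.70 with it (adjusted p = 0.165), TGFB2 was at -0.59 without Wnt3a, and LTBP1 with Wnt3a was newly called, at -1.04 (adjusted p = 0.0379).

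Over the 24 arrays, the log2 signals of TGFB2 and LTBP1 had a Pearson correlation of 0.88, those of TGFB1 and TGFB2 of 0.85, and those of TGFB1 and LTBP1 of 0.85. TGFBR2 ran the other way, at -0.82 with TGFB2 and -0.78 with LTBP1. With slide means removed, these 5 values were 0.87, 0.87, 0.87, -0.83 and -0.78. The 24 points share 8 conditions and 3 slides and are not independent, so that these are descriptions.

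**Figure D4:**
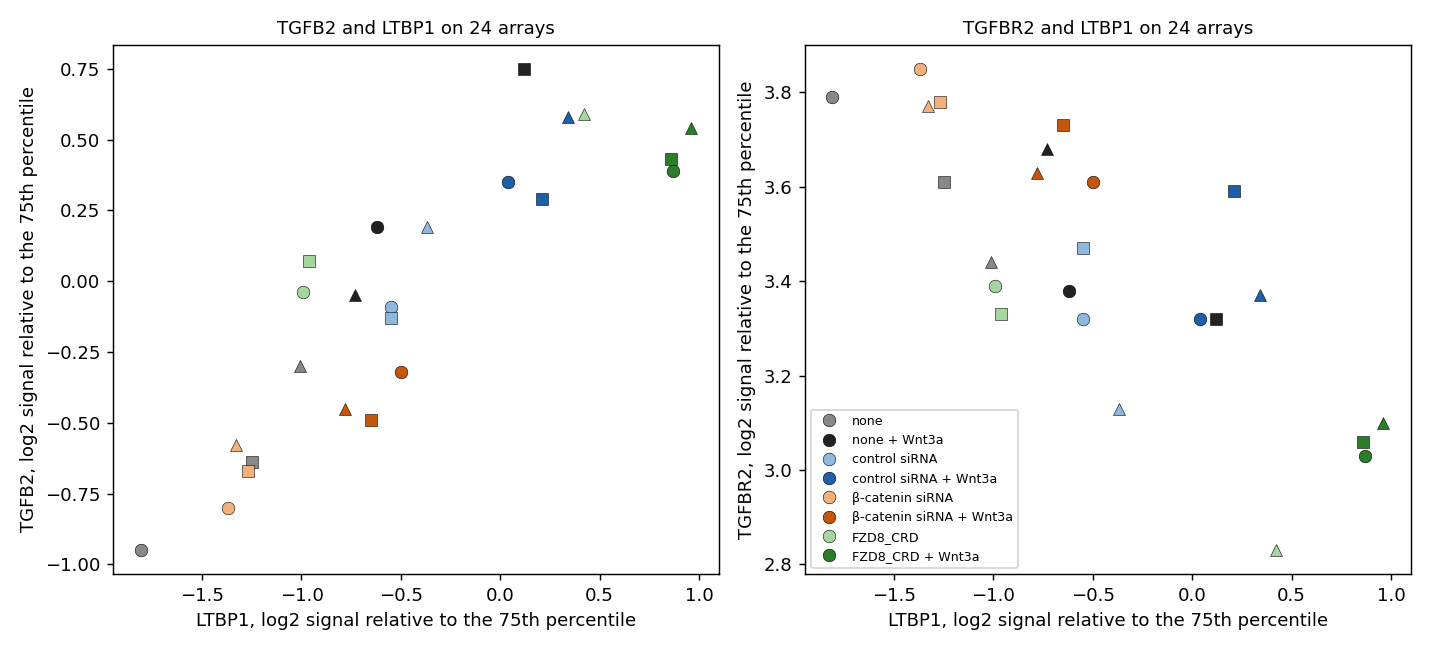
Log2 signals of TGFB2 (left, y axis) and TGFBR2 (right, y axis) against LTBP1 (x axis) on the 24 arrays, coloured by condition, with circle, square and triangle for replicates 1, 2 and 3. TGFB2 is high and TGFBR2 low where LTBP1 is high (correlations of 0.88 and -0.78), and FZD8_CRD replicate 3 lies between the other 2 arrays of its condition and the FZD8_CRD+Wnt3a arrays in LTBP1 (0.42).

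Among 15965 other genes, the 3 with the profile most like each member over the 24 arrays were named by their Pearson correlation. For TGFB1 these were STXBP6 (0.95), S100A11 (0.94) and MBTPS1 (0.94), and for TGFB2 LEF1, GCNT1 and DCBLD2 (0.94 each). LEF1 encodes a transcription factor that binds β-catenin. For TGFB3 they were PARP8 (0.91), COL5A1 (0.91), which encodes a fibrillar collagen chain, and KANK2 (0.89). For LTBP1 they were GLIPR1 (0.97), ENDOD1 (0.96) and LHB (0.96). For TGFBR2 they were PIGT (0.93), RMP64 (0.92) and CTNNBIP1 (0.92), which encodes an inhibitor of β-catenin. For TGFBR1 they were ANO6 (0.88), MGAT4B (0.87) and PTP4A1 (0.86), and for TGFBR3 SOS2 (0.85), MAIP1 (0.85) and FH (0.84). For LTBP2 they were SPRYD3 (0.85), OAZ2 (0.84) and TMEM92 (0.84), and for SMAD7 DOP1A (0.90), HCFC1R1 (0.89) and MPHOSPH8 (0.89). The points again share conditions and slides, and a link of any of these genes to the members was not tested.

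Lists of 62 further pathway genes were drawn up by role, of which 57 were tested. The ligands MSTN and NODAL, the receptor ACVRL1 and the latency proteins LRRC32 and NRROS did not pass the filter. With Wnt3a in untransfected cells, 5 of 57 were called, 4 higher and 1 lower (8.77%, beside 5.6% of all genes). With the slide as a block, 10 of 57 were called, beside 11.5% of all genes. FBN1, the fibrillin to which LTBP1 attaches, rose by 1.18 ± 0.20 (adjusted p = 0.00257). Among 22 target genes 3 rose, the metalloproteases ADAM19 (1.22 ± 0.27, adjusted p = 0.0124) and ADAM12 (1.01 ± 0.27, adjusted p = 0.037) and ACTA2, smooth muscle actin (0.31 ± 0.06, adjusted p = 0.00828). ACVR1C, a type I receptor for activins and nodal, fell by 0.49 on the log2 scale (adjusted p = 0.00796). The median change of the 22 targets was 0.20, beside 0.014 for all genes. None of the 22 was called when NT+Wnt3a replicate 2 was left out (0 of 22), and the count was between 1 and 5 without each of the other NT and NT+Wnt3a arrays.

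After control siRNA, Wnt3a raised 3 of 57 (5.26%, beside 2.11% of all genes): ADAM19 (1.09 ± 0.27, adjusted p = 0.0377), FBN1 (0.77 ± 0.20, adjusted p = 0.0477) and KLF10, a TGF-β-induced transcription factor (0.47 ± 0.11, adjusted p = 0.0334). After β-catenin siRNA, 0 of 57 were called, beside 0.0406% of all genes. With the slide as a block it was 1 of 57, beside 0.187% of all genes.

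With FZD8_CRD present, Wnt3a changed 20 of 57, 17 higher and 3 lower, and 11 of 22 targets rose (50% of them, beside 8.29% of all genes), with a median of 0.58 against 0.018 for all genes. Among those that rose were TAGLN, an actin-binding protein of smooth muscle (1.97 ± 0.37, adjusted p = 0.00331), TGFBI, a secreted matrix protein (1.93 ± 0.35, adjusted p = 0.00262), and ADAM19 (1.59 ± 0.27, adjusted p = 0.00176). The 3 that fell were INHBB, an inhibin and activin subunit (-1.20 ± 0.19, adjusted p = 0.0013), ITGB8, of an integrin that activates latent TGF-β (-1.19 ± 0.34, adjusted p = 0.0359), and NEDD4L, a ubiquitin ligase that limits SMAD signalling (-0.64 ± 0.14, adjusted p = 0.00695). Replicates of FZD8_CRD varied widely in these genes, with an SD of 1.23 for TGFBI and 1.02 for TAGLN. The count of 11 targets became 4 without FZD8_CRD replicate 1, 6 without replicate 2 and 14 without replicate 3, and it was 3 with spike-in scaling (0.958% of all genes).

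FZD8_CRD against no addition changed 25 of 57 genes without Wnt3a (43.9%, beside 41.9% of all genes), 15 higher and 10 lower. Of the 22 targets 10 were called (45.5%), 9 higher and 1 lower, which is also near the background. With spike-in scaling 4 were called, 2 of them higher, beside 29.9% of all genes. Those that rose included ADAM12 (1.82 ± 0.27), THBS1, a secreted activator of latent TGF-β (1.60 ± 0.30), and FSTL3, which binds activins (0.99 ± 0.19). INHBE (-2.15 ± 0.39), ITGB6, of another activating integrin (-1.62 ± 0.43), the activin receptor ACVR1B (-1.17 ± 0.24) and INHA (-0.98 ± 0.22) fell the most. With Wnt3a in both groups, 26 of 57 were called, 19 higher and 7 lower (45.6%, beside 37.2% of all genes). In that comparison 14 of 22 targets were higher and 1, TSC22D1 (-0.62 ± 0.11), was lower, which is 68.2% of the targets beside 37.2% of all genes. Those that rose included TAGLN (2.36 ± 0.37, adjusted p = 6.05e-05), THBS1 (1.92 ± 0.30, adjusted p = 5.24e-05) and JUNB, a subunit of AP-1 (1.55 ± 0.18, adjusted p = 3.98e-06). ITGB8 (-1.78 ± 0.34), INHBE (-1.17 ± 0.39), NEDD4L (-1.17 ± 0.14) and INHA (-0.88 ± 0.22) fell the most. The count of targets called was between 14 and 15 without any single array of these conditions, and 7 when arrays were scaled to the spike-ins (9.35% of all genes).

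**Figure D5:**
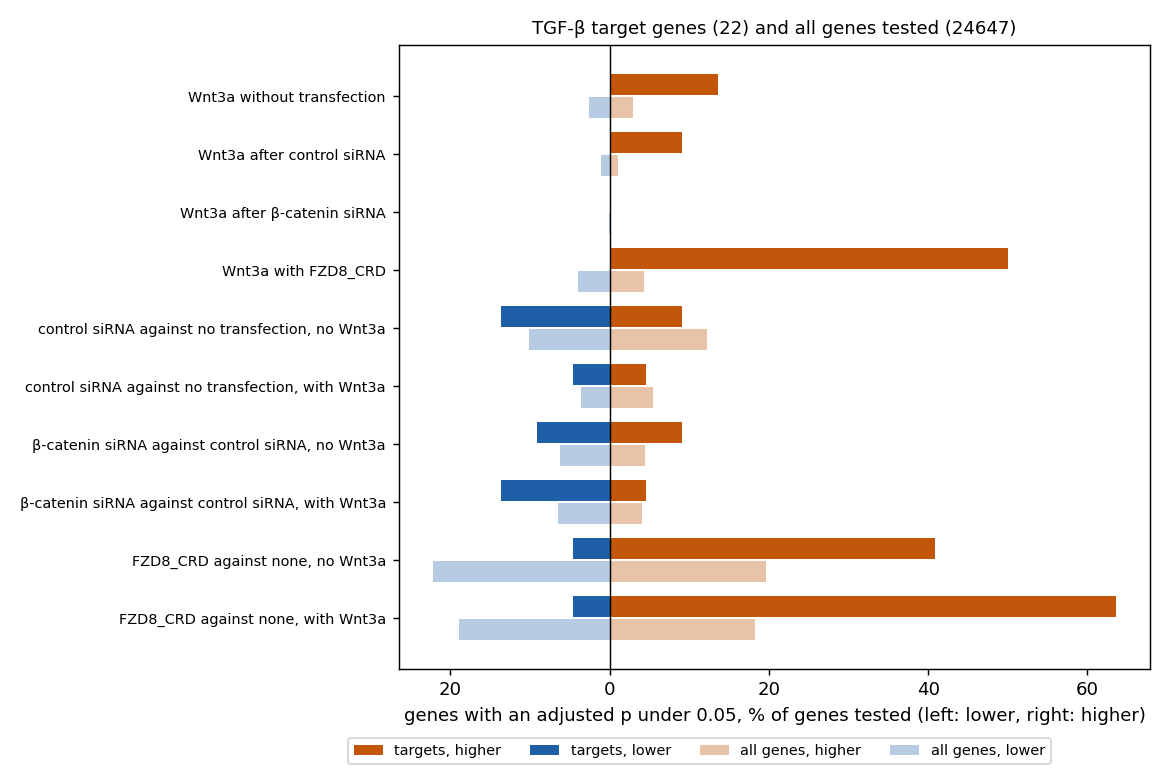
Share of the 22 TGF-β target genes (dark bars) and of all 24647 genes tested (light bars) with an adjusted p under 0.05 in each comparison, in % (x axis; lower genes to the left, higher genes to the right). The higher targets make up 50% with Wnt3a in the presence of FZD8_CRD. That count of 11 became 4 without FZD8_CRD replicate 1 and 3 with spike-in scaling. With FZD8_CRD in the presence of Wnt3a, 14 of 22 were higher.

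β-catenin siRNA against control siRNA changed 12 of 57 without Wnt3a, 7 higher and 5 lower (21.1%, beside 10.6% of all genes). ITGB6 (1.83 ± 0.43, adjusted p = 0.00893), CCN2, connective tissue growth factor (1.12 ± 0.26, adjusted p = 0.00872), PMEPA1 (1.05 ± 0.19, adjusted p = 0.00113) and BAMBI (0.96 ± 0.15, adjusted p = 0.000287), both inhibitors of the pathway, rose the most. ITGB6 was well above background on 2 of 3 siCTRL arrays. TAGLN (-1.23 ± 0.37), INHBB (-0.86 ± 0.19), the activin receptor ACVR2B (-0.78 ± 0.11) and BHLHE40 (-0.75 ± 0.16) fell the most. With Wnt3a, 10 of 57 were called, 3 higher and 7 lower (17.5%, beside 10.6% of all genes), and 16 with the slide as a block (15.6% of all genes). IGFBP3, a binding protein for insulin-like growth factors (0.86 ± 0.15), BAMBI (0.76 ± 0.15) and the inhibitory SMAD6 (0.41 ± 0.11) were the 3 higher genes. TAGLN (-1.57 ± 0.37), ADAM19 (-1.11 ± 0.27), THBS1 (-1.07 ± 0.30) and BHLHE40 (-1.05 ± 0.16) fell the most.

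Control siRNA against no transfection changed 16 of 57 without Wnt3a, 4 higher and 12 lower, and 5 of 57 with it, 1 higher and 4 lower. These are 28.1% and 8.77%, beside 22.3% and 9.04% of all genes. Without Wnt3a the 4 higher genes were ADAM12 (1.09 ± 0.27), the cell cycle inhibitor CDKN1A (0.77 ± 0.11), SMAD6 (0.71 ± 0.11) and SMAD3 (0.38 ± 0.10). ITGB6 (-3.11 ± 0.43), INHBE (-2.04 ± 0.39), CCN2 (-1.44 ± 0.26) and INHBA (-0.97 ± 0.23) fell the most. With Wnt3a, CDKN1A rose (0.68 ± 0.11), and ITGB6 (-2.43 ± 0.43), INHBE (-1.43 ± 0.39), IGFBP3 (-0.80 ± 0.15) and ACVR1C (-0.35 ± 0.10) fell. ITGB6 was well above background on 2 of 3 siCTRL and 1 of 3 siCTRL+Wnt3a arrays, and its means there, -5.67 and -5.82, lie near the floor of -6.13, so that its differences are imprecise.

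Markers of other cell types and of hepatocytes moved with some of these comparisons. Of all genes, Wnt3a changed 5.6% in untransfected cells, 2.11% after control siRNA and 8.29% with FZD8_CRD. Control siRNA changed 22.3% without and 9.04% with Wnt3a, and β-catenin siRNA 10.6% in both cases. FZD8_CRD changed 41.9% without and 37.2% with Wnt3a. Of 8 stellate cell and fibroblast markers, 4 (DCN, LUM, COL1A1 and COL3A1) rose with Wnt3a in untransfected cells and 2 after control siRNA, and with β-catenin siRNA 4 fell without Wnt3a and 5 with it. With FZD8_CRD 3 of them fell without Wnt3a and 5 with it, and with control siRNA 3 and 2 fell. The 3 of 8 with FZD8_CRD without Wnt3a are near the share of all genes and not a result about these markers. Of 6 biliary and progenitor markers tested, 4 (SOX9, CD24, SPP1 and CDH1) fell and KRT19 rose with FZD8_CRD, both without and with Wnt3a. SPP1 also fell with Wnt3a in untransfected cells, where CD24 rose, and with control siRNA, and it rose with β-catenin siRNA, while SOX9 and CD24 fell with β-catenin siRNA in the presence of Wnt3a. With Wnt3a in the presence of FZD8_CRD, COL1A1, APOA1, TTR, CD68 and TEK rose and APOB, CDH1 and KDR fell. The summed linear signal of the 8 stellate cell and fibroblast markers, relative to the 75th percentile, was 40.9 to 60.1 in NT, 80.5 to 88.6 in NT+Wnt3a, 27.5 to 40.8 in siCTRL, 47.6 to 52.8 in siCTRL+Wnt3a, 12.6 to 15.6 in siCTNNB1, 15 to 16 in siCTNNB1+Wnt3a, 18.1 to 27.8 in FZD8_CRD and 25.8 to 26.4 in FZD8_CRD+Wnt3a. Of these markers, 5 were well above background on all 24 arrays, and PDGFRB was so on 7. The sum is set mostly by the brightest markers, with median log2 signals of 4.26 for DCN and 2.59 for LUM but -6.02 for PDGFRB. Of 8 hepatocyte markers, 8 fell with control siRNA and 8 with FZD8_CRD, both without Wnt3a (medians of -1.77 and -2.15), and 5 fell in each of these comparisons with Wnt3a (medians of -1.39 and -1.15). With β-catenin siRNA their medians were 0.66 without and 0.58 with Wnt3a, and 1 of them, ALB, was called higher, with Wnt3a. The summed signal of the hepatocyte markers was 793 to 1510 in NT, 402 to 932 in NT+Wnt3a, 382 to 415 in siCTRL, 195 to 272 in siCTRL+Wnt3a, 481 to 634 in siCTNNB1, 287 to 503 in siCTNNB1+Wnt3a, 253 to 374 in FZD8_CRD and 383 to 397 in FZD8_CRD+Wnt3a. This sum, too, is set mostly by the brightest markers, with median log2 signals of 7.81 for ALB and 7.17 for SERPINA1 but -4.31 for HNF4A. Among endothelial markers 4 of 5 and among leukocyte markers 2 of 5 were well above background on all arrays. KDR fell with FZD8_CRD without and with Wnt3a, TEK rose with it in the presence of Wnt3a, and CD68 fell with it in the absence of Wnt3a. PECAM1 fell with β-catenin siRNA without Wnt3a. MARCO fell with Wnt3a after control siRNA and with β-catenin siRNA without and with Wnt3a. The part of these markers in the results on TGF-β genes was not tested.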

How the data were processed

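RNA of 24 HepaRG samples was read on 24 one-colour arrays of 62976 spots, of which 61657 are not controls. Intensities are as deposited: per the file headers, Agilent Feature Extraction 10.7.1.1 subtracted the background and detrended the green signal (the submitters' processing notes name version 10.7.3.1). The authors also deposited a table of log2 values, which are scaled to the 75th percentile and centred per probe; its 25443 of 25443 probes matched, with correlations of 0.926 to 0.992 per array, a median slope of 0.988 and column medians from -0.0502 to 0.019. It served as an alternative, and its direction and scale are those used here.

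Each array's processed intensity was divided by its 75th percentile, floored at -6.13 on the log2 scale and logged. Outlier spots were dropped and spots of a probe averaged. A probe entered the test if some condition had it well above background in its 3 replicates (31065 of 50683 probes), and a gene was represented by its brightest probe (24647 genes, 16000 with a RefSeq symbol). One mean per condition was fitted to all arrays with limma 3.58.1 in R 4.3.3 (lmFit, eBayes with trend), and two-sided p-values were adjusted by Benjamini-Hochberg over all genes. ± after a fold change is the SE. The script was tested on simulated data. The p-values measure the spread between these samples, and the number of arrays limits the precision.

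The members and gene lists were chosen with earlier results of these data known. The text names all 9 members, up to 4 called pathway genes per direction and comparison, the 3 genes most like a member, and genes counted from a list, except 1 pathway gene that is counted but not reported here; the fall of TSC22D1 was named because it was the single target called lower. Replicate numbers coincide with slides: deviations from condition means correlated by 0.38 on average for arrays of the same number and by -0.19 for others, but 82 and not all of 84 pairs were above 0.1, so the block was kept as an alternative. The highest correlation between 2 replicates was 0.9961, and no array was treated as a duplicate. The other alternatives were the normalization, background correction, filter, probe choice, outliers, floor, spike-in scaling, samples in the fit, call rule and replicates. Promoters are RefSeq sequences on GRCh38.p14.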

Additional observations from a re-analysis of the deposited data

How the results depend on the processing

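No called value of the 9 genes changed sign under any alternative. Of 26 calls, 24 were kept under quantile normalization, 21 under normexp, 25 with the deposited table, 18 with no filter, 26 with a filter on all arrays, 14 when only the conditions compared were fitted, 17 under the call rule of the study (unadjusted p and fold) and 6 under spike-in scaling. The cause was not tested.

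For Wnt3a after control siRNA, 1 member was called under quantile normalization, 1 under normexp, 1 with the deposited table, 0 with no filter and 0 with spike-in scaling. For Wnt3a with FZD8_CRD, 2 were called with no filter, 1 with spike-in scaling, 0 with only the conditions compared and 2 under the study's call rule. For Wnt3a in untransfected cells, 0 were called with spike-in scaling and 0 with only the conditions compared. For control siRNA against no transfection without Wnt3a, 2 were called under normexp, 2 with no filter and 1 with spike-in scaling. For β-catenin siRNA against control siRNA, 0 were called with spike-in scaling without Wnt3a, and 4 with only the conditions compared with Wnt3a. For FZD8_CRD without Wnt3a, 2 were called with spike-in scaling, 1 with only the conditions compared and 2 under the study's call rule, and with Wnt3a 1 and 1 under the first and last of these.

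With the replicate number (slide) as a block, all 26 calls were kept and 6 were gained. The count for β-catenin siRNA with Wnt3a rose from 2 to 4, through LTBP1 and SMAD7; the other gains were LTBP1 and SMAD7 for β-catenin siRNA without Wnt3a, and TGFBR3 for Wnt3a in untransfected cells and with FZD8_CRD.

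With arrays or a whole replicate left out, the count of members called ranged from 0 to 7 for Wnt3a in untransfected cells, 0 to 2 after control siRNA, 0 to 0 after β-catenin siRNA and 0 to 5 with FZD8_CRD. It ranged from 0 to 5 and 0 to 1 for control siRNA without and with Wnt3a, 0 to 6 and 0 to 3 for β-catenin siRNA, 1 to 4 and 1 to 3 for FZD8_CRD, and 0 to 0 and 0 to 2 for the differences between responses. The calls over all genes moved as well: 0.0243% to 25.7% of genes for Wnt3a in untransfected cells, the highest together with the 7 members, without replicate 3. With only the conditions compared in the fit, 2 genes in all were called there. Without replicate 1 of every condition 2 of 26 calls were kept, without replicate 2 there were 5, and without replicate 3 there were 25, with 10 gained.

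For all 57 pathway genes, the block, added after seeing the data, raised the count from 5 to 10 for Wnt3a in untransfected cells, from 10 to 16 for β-catenin siRNA with Wnt3a, and from 0 to 1 and 0 to 2 for Wnt3a after β-catenin siRNA and for the difference between the responses with and without FZD8_CRD; other counts moved by less than 1.5 times. For the target genes, alternatives chosen after seeing the data gave 0, 3, 4 and 7 of 22 called with spike-in scaling, for Wnt3a alone, Wnt3a with FZD8_CRD, and FZD8_CRD without and with Wnt3a, and 3, 13, 11 and 17 with the block. With single arrays of the conditions compared left out they were 0 to 5, 4 to 14, 9 to 11 and 14 to 15. Having 3 arrays per condition limits what can be called, and signals near the background of the array are compressed.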
